A study of Mus musculus with 2 samples.

Results

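The chemokines described here are Cxcl1, Cxcl2, Cxcl9, Cxcl10, Cxcl13, Cxcl16 and Pf4, which are 7 of the 27998 genes in the deposited matrices. They were taken as a fixed list of symbols, and each symbol was found once in both libraries. Both libraries were made from 8-month-old male CB6F1 mice with a Cx3cr1-YFP reporter, which makes retinal cells fluoresce where the fractalkine receptor promoter is active. The light-damaged library (LD) was made from mice that were dark-adapted, given 1% atropine and 10% phenylephrine to widen the pupils, kept for 4 h under LED light of 10 klux and left to recover for 5 days. The control library (ctrl) is described as without light damage; its protocol field repeats the light-damage text, so whether these mice were dark-adapted or had widened pupils is not clear from the labels. For each library, retinas of 5 to 8 mice were pooled and digested for 30 min at 37 °C with collagenase and DNase, and live YFP-positive cells were sorted and sequenced from the 3' end of their transcripts. Each group is thus 1 pool and 1 library, so that group and library cannot be told apart. No test between the groups is possible, and the intervals below are 95% intervals that cover counting error only.

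Chemokines are small secreted proteins that attract leukocytes along a gradient through receptors with a G protein behind them. Cxcl1 and Cxcl2 act on Cxcr2 and draw neutrophils, and both are classical targets of the transcription factor NF-kB. Cxcl9 and Cxcl10 are interferon-induced ligands of Cxcr3, a receptor of activated T cells and natural killer cells. Cxcl13 acts on Cxcr5 and draws B cells into lymphoid follicles. Cxcl16 is made as a membrane-anchored protein whose receptor is Cxcr6, and the metalloproteases Adam10 and Adam17 release its soluble form. Pf4, platelet factor 4, is stored in platelet granules and is also transcribed by macrophages at tissue borders.

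The starts of 4 of the genes are printed because the cells that held each chemokine, described further on, were described by lists of NF-kB-inducible and interferon genes. Promoters were taken from RefSeq on GRCm38.p6 and run from 250 bases before to 50 bases after the annotated start, on the gene's own strand; 6 of the 7 genes matched, with Cxcl16 the exception. Capitals mark an NF-kB-type motif (GGGA, any 2 bases, T, any base, CC) or an interferon-stimulated response element-type motif (GAAA, any 2 bases, GAAA), searched on both strands. The regions are chr5:90890995-90891294 (+) for Cxcl1, chr5:90903649-90903948 (+) for Cxcl2, chr5:92348840-92349139 (-) for Cxcl10 and chr5:95956689-95956988 (+) for Cxcl13.
Cxcl1: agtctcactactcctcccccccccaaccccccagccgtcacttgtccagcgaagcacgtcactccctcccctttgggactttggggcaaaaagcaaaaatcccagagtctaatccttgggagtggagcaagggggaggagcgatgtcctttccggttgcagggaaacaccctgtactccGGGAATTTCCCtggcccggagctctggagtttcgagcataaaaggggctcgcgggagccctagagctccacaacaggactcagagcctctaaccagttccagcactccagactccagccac
Cxcl2: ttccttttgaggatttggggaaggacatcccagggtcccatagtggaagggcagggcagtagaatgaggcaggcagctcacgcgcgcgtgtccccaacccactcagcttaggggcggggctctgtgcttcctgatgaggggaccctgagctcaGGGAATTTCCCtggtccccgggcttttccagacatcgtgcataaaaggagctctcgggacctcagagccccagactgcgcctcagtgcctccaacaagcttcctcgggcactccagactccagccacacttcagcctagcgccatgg
Cxcl10: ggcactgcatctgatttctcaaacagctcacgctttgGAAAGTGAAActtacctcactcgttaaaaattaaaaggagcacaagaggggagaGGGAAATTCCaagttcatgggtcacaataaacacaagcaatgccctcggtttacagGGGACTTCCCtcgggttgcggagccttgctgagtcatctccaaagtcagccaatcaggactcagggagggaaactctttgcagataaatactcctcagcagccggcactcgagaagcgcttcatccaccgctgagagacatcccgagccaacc
Cxcl13: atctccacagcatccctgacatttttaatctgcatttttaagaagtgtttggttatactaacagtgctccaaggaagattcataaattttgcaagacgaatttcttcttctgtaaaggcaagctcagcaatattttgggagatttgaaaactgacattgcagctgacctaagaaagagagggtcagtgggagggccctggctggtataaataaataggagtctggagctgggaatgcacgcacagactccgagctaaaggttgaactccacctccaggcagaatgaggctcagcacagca
The Cxcl1 and Cxcl2 promoters held the same run, GGGAATTTCCC, starting 71 bases before the Cxcl1 start and 97 bases before the Cxcl2 start, in which the NF-kB-type motif reads on both strands and overlaps itself. The Cxcl10 promoter held an interferon-type run, GAAAGTGAAA, 213 bases before its start and NF-kB-type runs 159 bases (GGGAAATTCC) and 103 bases (GGGACTTCCC, a match on both strands) before it. Neither motif was found in the windows of Cxcl13, Cxcl9 or Pf4. Of 32851 promoters of the same length, 4.01% held the NF-kB-type motif and 3.44% the interferon-type motif. These matches are runs of letters and were not tested for binding.

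In the GENCODE M21 annotation of GRCm38, all members but Cxcl16 lie on chromosome 5. Pf4 (90772435 to 90773383, plus strand), Cxcl1 (90891241 to 90893115, plus) and Cxcl2 (90903871 to 90905938, plus) are near one another. Cxcl9 (92321347 to 92328079, minus), Cxcl10 (92346638 to 92348889, minus) and Cxcl13 (95956951 to 95961068, plus) lie further along. Cxcl16 is on chromosome 11 (70453983 to 70459984, minus). Cxcl10 lies wholly within the span of Art3 on the opposite strand, where 133 of its 2252 exonic bases are also exonic in Art3, and 552 exonic bases of Cxcl16 overlap Zmynd15 on the opposite strand. The use of strand in counting is not given in the sources used here, so reads from these overlaps cannot be told apart. Of the 50-base words in the last 500 bases of the Cxcl2 transcripts, 7.63% are shared with Cxcl3, and the other members shared none with any gene.

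The LD matrix held 6821 barcodes with a median of 7351 UMIs (unique molecular identifiers, each counting 1 captured transcript), and the ctrl matrix 4003 barcodes with a median of 4846. After filters, 6427 LD and 3820 ctrl cells remained, of which 44 LD and 45 ctrl cells carried a barcode found in both libraries. Cells with at least 20 UMIs per 10000 of P2ry12, Tmem119, Siglech, Gpr34 and P2ry13 were taken as microglia, 4395 in LD and 3377 in ctrl. Cells with at least 10 UMIs per 10000 of Mrc1, F13a1, Cd163, Lyve1 and Cbr2 were taken as perivascular macrophages, 83 in LD and 52 in ctrl. Levels are UMIs summed over the cells of a class, given per 1000000 UMIs of that class and library (CPM). Perivascular markers outside the rule (Folr2, Stab1, Ms4a7 and others) summed to 1660 CPM in LD and 1102 CPM in ctrl perivascular cells.

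The third class was cells with both sums under 10, 1166 in LD and 244 in ctrl, and it is called double-low here because the ctrl cells went against the name "other macrophages". Under 5 UMIs per 10000 of 6 macrophage genes were found in 14 of the 1166 LD and 58 of the 244 ctrl double-low cells. Rod photoreceptor markers summed to 294 CPM in LD and 13896 CPM in ctrl double-low cells, and 103 ctrl double-low cells carried at least 1 UMI of a perivascular gene. Perivascular markers outside the rule summed to 902 CPM in LD and 571 CPM in ctrl double-low cells. In LD, Ms4a7 had 775 CPM in double-low cells and 815 CPM in perivascular macrophages, so it did not set these classes apart. Folr2 had 24.9 CPM in LD double-low cells and 473 CPM in LD perivascular macrophages. A further 781 LD and 142 ctrl cells fell between the limits. Fewer cells of a type and less transcript per cell cannot be told apart within such a class.

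Barcodes of rod type without macrophage genes give a level that free RNA can reach. LD had 3 of them, too few for a level, and ctrl had 32, with a median of 1921.5 UMIs, against 4783 UMIs in ctrl microglia. Cxcl2 was seen in 37.5% of the 32 (interval 21.1% to 56.3%) at 167 CPM, and Cxcl1 at 14.5 CPM. Ctrl microglia had Cxcl2 in 46.8% of cells at 267 CPM, and Cxcl1 at 15.1 CPM, so that Cxcl1 in ctrl microglia is read as background and so is Cxcl2 in its cells with 1 or 2 UMIs. Cxcl10 and Cxcl16 had 1 UMI each in these barcodes, or 7.27 CPM (0.184 to 40.5), under their levels in microglia. Pf4, Cxcl9 and Cxcl13 had 0 UMIs there, which allows up to 21.8 CPM.

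**Figure D1:**
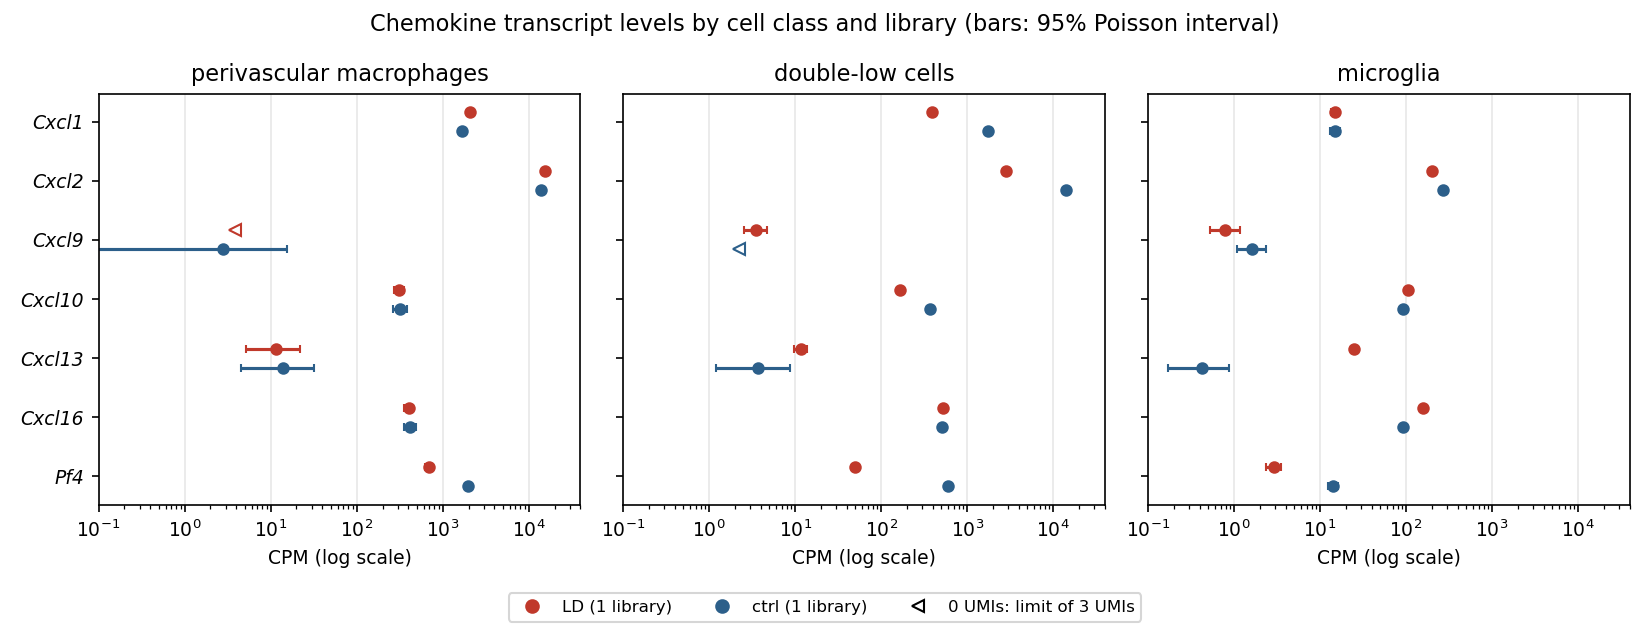
CPM of each gene (log axis) in perivascular macrophages, double-low cells and microglia, with LD above ctrl in each pair; bars are 95% Poisson intervals and open triangles mark 0 UMIs, drawn at the limit of 3 UMIs. Cxcl1, Cxcl2 and Pf4 sit far to the right in perivascular macrophages, up to 15514 CPM for Cxcl2 in LD, and Cxcl13 in microglia is at 24.7 CPM in LD and 0.423 CPM in ctrl.

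In both libraries, 5 of the genes were more abundant outside microglia than in them. In LD, 6 of the 7 genes reached 20 CPM in perivascular macrophages or microglia, and 5 of them (Cxcl1, Cxcl2, Cxcl10, Cxcl16 and Pf4) were over 1.5 times higher in perivascular macrophages, while 15.6% of all genes measured were. The sixth, Cxcl13, was lower there, at 11.4 CPM against 24.7 CPM in microglia, as were 30.8% of genes. Double-low cells of LD gave the same 5 higher genes, beside 13.8% of all genes, and Cxcl13 as the 1 lower gene, beside 17.7%. In ctrl, 5 of 5 measured genes were higher in perivascular macrophages, beside 16.2% of all genes, and 0 were lower, beside 40.0%. In ctrl double-low cells 5 of 5 were higher, beside 25.0%, and 0 were lower, beside 26.0%.

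Cxcl2 and Cxcl1, the neutrophil-attracting ligands, had, with Pf4, the widest gaps between perivascular macrophages and microglia. Cxcl2 reached 15514 CPM in LD and 14037 CPM in ctrl perivascular macrophages, against 199 CPM in LD and 267 CPM in ctrl microglia. This was 77.9 times (75.6 to 80.3) the microglial level in LD and 52.7 times (50.6 to 54.8) in ctrl. In perivascular macrophages the transcript was widespread, with at least 10 UMIs in 65 of 83 LD cells and 30 of 52 ctrl cells. In microglia it was carried by few cells: 101 of 4395 LD microglia with at least 10 UMIs held 69.2% of all microglial Cxcl2 UMIs, and 34 of 3377 ctrl microglia held 47.6%. The highest LD microglia cell had 398 Cxcl2 UMIs and the highest ctrl cell 312.

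Between the libraries, Cxcl2 in perivascular macrophages was 1.11 times as high in LD as in ctrl (1.07 to 1.14), within the 1.5-fold limit used here. In double-low cells it had 2827 CPM in LD and 14115 CPM in ctrl, a ratio of 0.200 (0.197 to 0.204). In microglia the ratio was 0.747 (0.718 to 0.776). Microglia with 1 or 2 UMIs, read as background in ctrl, held 22.2% of the microglial Cxcl2 UMIs in LD and 40.3% in ctrl. This ratio is therefore not read as one in expression. At a fixed 2700 UMIs per cell, 16.5% of LD microglia and 31.3% of ctrl microglia had a Cxcl2 UMI. The ctrl share stands close to that of the rod-type barcodes, so the difference in shares is not read as one in expression.

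Cxcl1 followed Cxcl2 across the classes. It had 2059 CPM in LD and 1691 CPM in ctrl perivascular macrophages, 388 CPM in LD and 1746 CPM in ctrl double-low cells, and 14.8 CPM in LD and 15.1 CPM in ctrl microglia. The ratios of LD over ctrl were 1.22 (1.11 to 1.34) in perivascular macrophages and 0.222 (0.211 to 0.233) in double-low cells. The perivascular log2 ratio of Cxcl1, 0.28, was 1.48 with the perivascular limit at 20 and 0.70 without the barcodes found in both libraries, both past 1.5-fold. The microglial levels lay close together only at the limit of 20 among the microglia limits tried: at 10 they were 17.1 CPM in LD and 47.2 CPM in ctrl, and at 30 they were 6.33 CPM in LD and 14.2 CPM in ctrl. In LD microglia, 4 cells with at least 10 UMIs held 50.2% of the Cxcl1 UMIs, and no ctrl microglia cell had more than 3. Of all Cxcl1 UMIs in kept cells, microglia held 6.60% in LD and 6.43% in ctrl, although they made up 68.4% of LD and 88.4% of ctrl cells.

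Immediate-early and heat-shock genes (Fos, Jun, Hspa1a and others), which tissue digestion at 37 °C is known to induce, also differed between the libraries. Their sum was 18492 CPM in LD and 52165 CPM in ctrl double-low cells, 36652 CPM in LD and 75276 CPM in ctrl perivascular macrophages, and 20112 CPM in LD and 32553 CPM in ctrl microglia. Cxcl1 and Cxcl2 were lower in LD double-low cells, where this sum was lower too, and not in LD perivascular macrophages, where the sum was also lower. Microglia, with a lower sum in LD as well, had Cxcl2 at 199 CPM in LD and 267 CPM in ctrl. Their Cxcl1 was at 14.8 CPM in LD and 15.1 CPM in ctrl. The part of this sum in the chemokine levels was not tested.

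Cxcl10, the interferon-induced Cxcr3 ligand, was present in all 3 classes. Perivascular macrophages had 310 CPM in LD and 318 CPM in ctrl, with 30 of 83 LD cells and 17 of 52 ctrl cells carrying a UMI. With the microglia limit at 10, the same class had 219 CPM in LD and 447 CPM in ctrl, which counts as lower in LD. Double-low cells had 167 CPM in LD and 368 CPM in ctrl, a ratio of 0.455 (0.412 to 0.502). Microglia had 106 CPM in LD and 93.5 CPM in ctrl, a ratio of 1.14 (1.07 to 1.21). Within microglia the transcript lay in a minority of cells, 14.4% in LD and 11.6% in ctrl. The 87 LD microglia with at least 10 UMIs held 62.8% of the UMIs and the 36 such ctrl microglia 50.5%. At 2700 UMIs per cell the shares were 9.01% in LD (8.18% to 9.90%) and 8.51% in ctrl (7.52% to 9.58%), and these intervals overlap.

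Cxcl9, the other Cxcr3 ligand measured, was close to absent. LD microglia had 26 Cxcl9 UMIs spread over 16 cells, and ctrl microglia had 27 UMIs in a single cell. LD double-low cells had 44 UMIs in 6 cells, 17 of them in 1 cell, and ctrl double-low cells had 0. With that 0 set to the floor of 3 UMIs the ratio of LD over ctrl was 1.55. The exact interval of the ratio starts at 1.21. Perivascular macrophages had 0 UMIs in LD and 1 in ctrl. No class reached 20 CPM.

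Cxcl13, the B-cell-attracting ligand, separated the libraries most. LD microglia had 806 UMIs in 131 of 4395 cells, or 24.7 CPM, and ctrl microglia had 7 UMIs in 7 of 3377 cells, or 0.423 CPM. The ratio was 58.4 (28.2 to 146), and the width of the interval comes from the 7 ctrl UMIs. At 2700 UMIs per cell, 1.50% of LD microglia (1.16% to 1.91%) and 0.102% of ctrl microglia (0.0211% to 0.298%) had a UMI.

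The LD transcript was concentrated in a handful of cells. The 44 microglia highest for Cxcl13, 1% of the class, held 89.0% of its UMIs, and the highest cell alone had 109. The 16 LD microglia with at least 10 UMIs held 613 UMIs, while 99 cells had 1 or 2. In ctrl no microglia cell had more than 1. Of the 781 LD cells between the limits, 36 carried 543 Cxcl13 UMIs, of which 1 cell had 335, and the 142 ctrl cells between the limits had 0, which allows up to 3.6 CPM. Perivascular macrophages had 9 UMIs in LD and 5 in ctrl. Double-low cells had 146 UMIs in 20 LD cells and 5 UMIs in 4 ctrl cells.

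Cxcl16, the membrane-anchored ligand, was the most evenly spread member. A UMI was seen in 56.0% of LD microglia and 31.0% of ctrl microglia, and the 10% of cells highest for it held 43.2% of its UMIs in LD and 53.6% in ctrl. LD microglia had 156 CPM and ctrl microglia 92.3 CPM, a ratio of 1.69 (1.60 to 1.79). At 2700 UMIs per cell, 30.9% of LD microglia (29.5% to 32.2%) and 18.7% of ctrl microglia (17.3% to 20.1%) had a UMI. Of the 32 ctrl rod-type barcodes, 3.13% had one (0.0791% to 16.2%) at their lower depth. At 1200 UMIs per cell the shares were 15.7% in LD and 9.15% in ctrl microglia. Both lie inside that wide interval from 32 barcodes, so the shares alone could not be set apart from free RNA at this depth. By level, the same ctrl barcodes had 7.27 CPM (0.184 to 40.5), under the 92.3 CPM of ctrl microglia. The highest microglia cell had 20 UMIs in LD and 16 in ctrl, so no single cell carried the difference.

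Outside microglia the Cxcl16 levels of the libraries lay close together. Perivascular macrophages had 403 CPM in LD and 423 CPM in ctrl, with a ratio of 0.954 (0.784 to 1.16). Double-low cells had 515 CPM in LD and 504 CPM in ctrl, with a ratio of 1.02 (0.945 to 1.11). Adam10, which cleaves Cxcl16 at rest, had 102 CPM in LD and 79.9 CPM in ctrl microglia (1.27 times, 1.19 to 1.36). Adam17, the inducible sheddase, had 62.1 CPM in LD and 57.0 CPM in ctrl microglia (1.09 times, 1.01 to 1.18). Both stayed within 1.5-fold.

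Pf4 had its highest level in perivascular macrophages among the 3 classes. It had 688 CPM in 83 LD cells and 1964 CPM in 52 ctrl cells, with a UMI in 89.2% and at least 10 UMIs in 22 of the LD cells, and a UMI in 96.2% and at least 10 UMIs in 26 of the ctrl cells. The ratio of LD over ctrl was 0.350 (0.313 to 0.392), and at 2700 UMIs per cell 67.5% of LD cells (56.3% to 77.4%) and 80.4% of ctrl cells (66.1% to 90.6%) had a UMI, intervals that overlap. With the perivascular limit at 20 in place of 10, Pf4 had 1077 CPM in LD and 1586 CPM in ctrl, and its log2 ratio of -0.56 no longer passed the 1.5-fold limit. Double-low cells had 49.3 CPM in LD and 598 CPM in ctrl, and as the larger class they held more of all Pf4 UMIs, 43.4% in LD and 35.4% in ctrl, than the perivascular macrophages did, with 37.6% in LD and 31.4% in ctrl. Microglia had 2.89 CPM in LD and 14.2 CPM in ctrl, where 2 cells in each library held 32 and 26 UMIs. Genes of platelets, the other known source of Pf4 (Gp9, Itga2b, Gp1bb, Gp6 and Treml1), were all at 0 in LD perivascular macrophages and summed to 11.1 CPM in ctrl perivascular macrophages, with Itga2b, Gp1bb and Gp6 at 0. In microglia the same 5 genes summed to 17.6 CPM in LD and 36.9 CPM in ctrl, nearly all of it Gp9 (16.8 CPM in LD and 36.2 CPM in ctrl), with Gp6 at 0.

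Pf4 was higher in cells with higher perivascular sums, also below the limit that defined the class. Among LD cells with macrophage genes and a microglia sum under 10, Pf4 had 21.8 CPM in 909 cells without a perivascular UMI, 248 CPM in 45 cells from 2.5 to 5, 497 CPM in 45 cells from 5 to 10 and 705 CPM in 74 cells at 10 or more. The ctrl cells had 124 CPM in 85 cells, 1155 CPM in 37 cells, 944 CPM in 52 cells and 2335 CPM in 35 cells over the same steps, of which the step from 5 to 10 was below the one before it. At each step ctrl was higher. The cells without a perivascular UMI had a median depth of 9690 UMIs in LD and 3782 UMIs in ctrl. A perivascular UMI is missed more readily at lower depth, and the part of this in that step was not tested. Cxcl2 took another course. LD had 1807 CPM in the cells without a perivascular UMI, 8296 CPM from 2.5 to 5, 21831 CPM from 5 to 10 and 16521 CPM at 10 or more. The ctrl cells had 7103, 25276, 22973 and 16439 CPM over the same steps. In both libraries Cxcl2 was thus highest below the limit of the class, and the libraries lay close together from 5 upwards and apart below it.

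**Figure D2:**
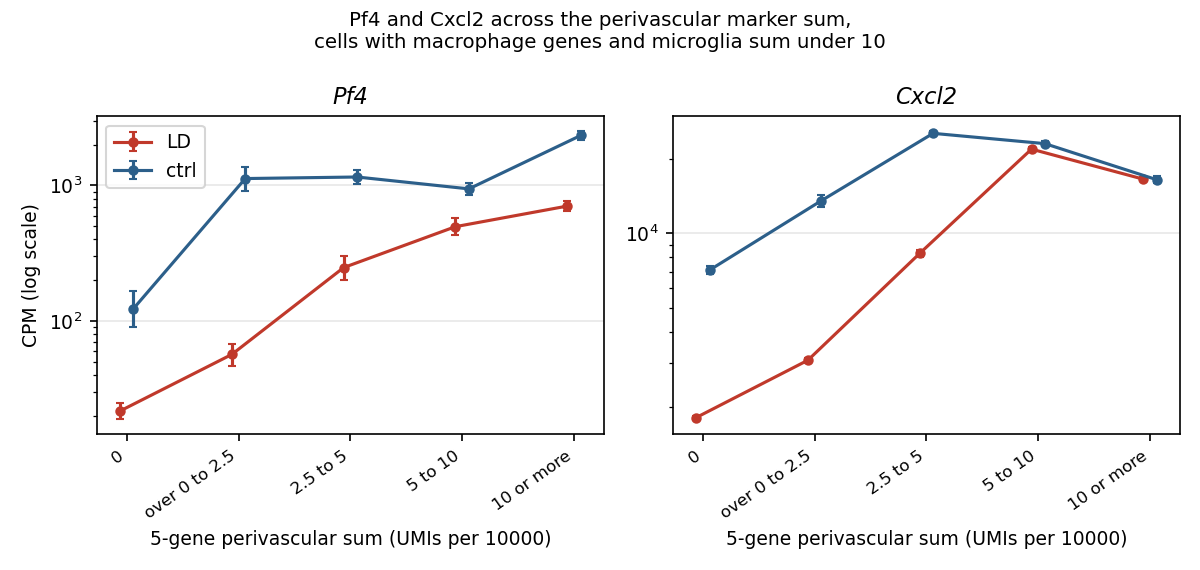
Pf4 and Cxcl2 in CPM (log axis) against the 5-gene perivascular sum per 10000 UMIs, in cells with macrophage genes and a microglia sum under 10; bars are 95% Poisson intervals. The ctrl point for sums over 0 to 2.5 rests on 12 cells. At a sum of 0 the median depth was 9690 UMIs in LD and 3782 UMIs in ctrl. Pf4 in LD (red) reaches 705 CPM and lies under ctrl (blue, 2335 CPM), and the Cxcl2 lines meet at sums of 5 and above.

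Counted over all members, the libraries differed in another way in each class. In microglia 4 of the 7 genes reached 20 CPM; Cxcl13 and Cxcl16 were over 1.5 times higher in LD, beside 5.42% of 5225 genes measured, and 0 were lower, beside 6.83%. With the microglia limit at 30 in place of 20, Cxcl13 in LD microglia stood at 15.4 CPM, under the 20 CPM asked for, and Cxcl2 passed as lower. In perivascular macrophages 5 were measured; 0 were higher, beside 21.8% of 4952 genes, and 1 (Pf4) was lower, beside 15.3%. In double-low cells 5 were measured; 0 were higher, beside 22.9% of 5857 genes, and 4 (Cxcl1, Cxcl2, Cxcl10 and Pf4) were lower, beside 28.4%. The median log2 ratios of the measured members were 0.47 in microglia, -0.03 in perivascular macrophages and -2.17 in double-low cells, where the medians of all genes were -0.02, 0.09 and -0.01. A median-of-ratios scaling moves all log2 ratios of double-low cells by 0.33, and every member called there kept its direction under it.

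**Figure D3:**
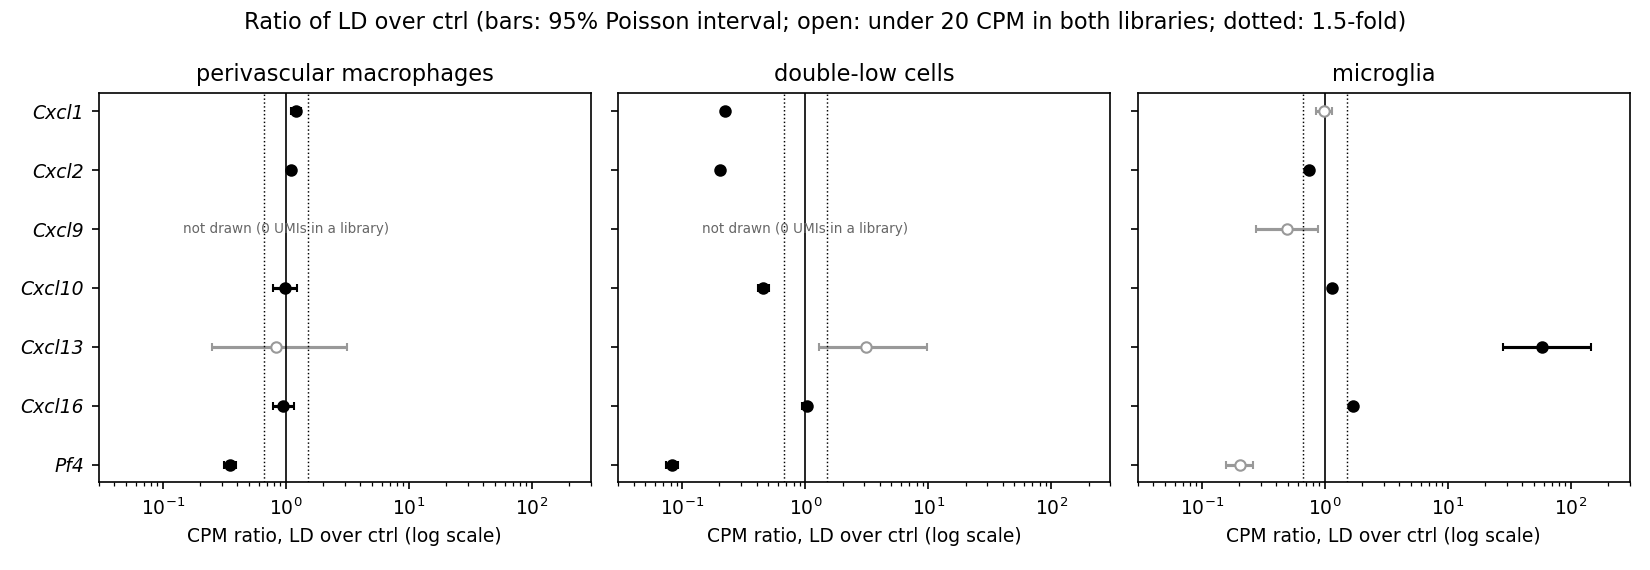
CPM ratio of LD over ctrl for each gene (log axis) in perivascular macrophages, double-low cells and microglia; bars are 95% Poisson intervals, open points have under 20 CPM in both libraries, and dotted lines mark 1.5-fold. Cxcl13 in microglia stands at 58.4 and Pf4 in double-low cells at 0.0824.

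The size of the double-low differences moved with the cells kept in both libraries, and the same 4 genes stayed lower in LD. With macrophage genes asked for, 1152 LD and 186 ctrl cells remained, and with no perivascular UMI asked for as well, 909 LD and 85 ctrl cells. The median depth under both conditions was 9690 UMIs in LD and 3782 UMIs in ctrl. A perivascular UMI is missed more readily at lower depth, so the second condition was less strict in ctrl. Under both, Cxcl2 had 1807 CPM in LD and 7103 CPM in ctrl, and Pf4 21.8 CPM in LD and 124 CPM in ctrl. With both conditions the log2 ratios of LD over ctrl were -1.97 for Cxcl2 and -2.51 for Pf4, nearer to 0 than the -2.32 and -3.60 of all double-low cells. Those of Cxcl1, -2.61, and Cxcl10, -1.59, were further from 0 than the -2.17 and -1.14 of all double-low cells. With macrophage genes alone asked for, all 4 were further from 0, at -2.47 for Cxcl1, -2.62 for Cxcl2, -1.43 for Cxcl10 and -3.90 for Pf4. When both sums had to be under 5 in place of 10, 3 of the 4 genes lay closer together. Cxcl1 had 451 CPM in LD and 1202 CPM in ctrl, Cxcl2 3499 CPM in LD and 8392 CPM in ctrl, and Pf4 35.8 CPM in LD and 344 CPM in ctrl. Cxcl10 lay further apart, at 169 CPM in LD and 426 CPM in ctrl.

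Microglia were not uniform, and the chemokine levels changed along the microglia marker sum in both libraries. Cxcl2 had 478, 126 and 71.8 CPM in LD microglia with sums of 20 to 30, 30 to 50 and 50 or more, and 1376, 413 and 149 CPM in ctrl microglia of the same steps. Within each step LD was lower, with ratios of 0.347 (0.324 to 0.372), 0.304 (0.285 to 0.326) and 0.481 (0.438 to 0.528), further from 1 than the 0.747 of the whole class. The 149 CPM of the top ctrl step lies within the interval of the ctrl rod-type barcodes (106 to 251 CPM), and LD has no such level, so the ratio of that step is not read as one in expression. At least 10 Cxcl2 UMIs were found in 58 LD and 15 ctrl cells from 20 to 30, and in 37 LD and 12 ctrl cells from 30 to 50. The intervals leave out spread between cells, and cells with 1 or 2 UMIs are counted in these steps too. Their ratios are therefore not read as ones in expression either. The steps held 906, 2134 and 1355 LD cells and 155, 708 and 2514 ctrl cells, so LD microglia weighed more on the low-sum side where Cxcl2 was high.

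For Cxcl10 the same steps gave 184, 86.9 and 70.0 CPM in LD and 179, 118 and 80.3 CPM in ctrl, with ratios of 1.02 (0.861 to 1.23), 0.735 (0.660 to 0.820) and 0.872 (0.786 to 0.967). The whole-class ratio of 1.14 was thus not seen within the 2 upper steps. Cxcl16 gave 213, 147 and 118 CPM in LD and 232, 118 and 75.1 CPM in ctrl, with ratios of 0.917 (0.786 to 1.07), 1.25 (1.13 to 1.38) and 1.57 (1.44 to 1.72). Its difference between the libraries was largest in the cells with the highest microglia sums, the only step past 1.5-fold. The Cxcl16 ratio of the whole class was above that of each step. LD microglia weighed more on the low-sum side, where Cxcl16 was high too. Cxcl13 gave 53.0, 21.3 and 4.35 CPM in LD microglia and 1.29, 0.534 and 0.333 CPM in ctrl microglia, so LD was above ctrl at each step.

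**Figure D4:**
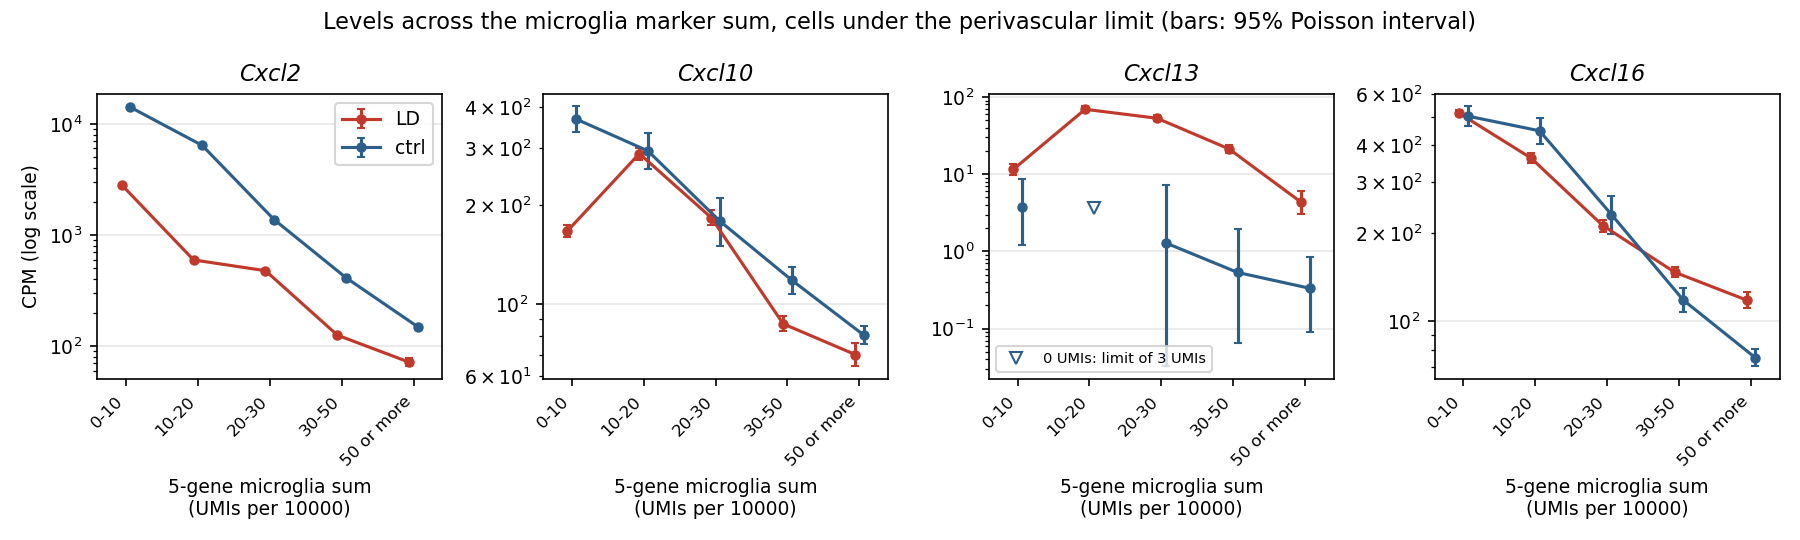
CPM (log axis) of Cxcl2, Cxcl10, Cxcl13 and Cxcl16 against the 5-gene microglia sum per 10000 UMIs in cells under the perivascular limit, LD in red and ctrl in blue; bars are 95% Poisson intervals and the open triangle marks 0 UMIs, drawn at the limit of 3 UMIs. Cxcl2 and Cxcl16 are lower at higher sums in both libraries, Cxcl2 in LD lies under ctrl at every step, and Cxcl13 in LD lies above ctrl at every step.

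The cells that held a chemokine were described by gene lists, with members left out of the lists, as the level in the 10% of microglia highest for a list over the level in the other microglia. Cxcl2 went with NF-kB-inducible inflammatory genes (Tnf, Il1a, Nfkbia and others): it had 1412 CPM in the high cells and 82.8 CPM in the others in LD, and 1103 CPM and 178 CPM in ctrl. Seen from the carriers, the 222 LD microglia with at least 3 Cxcl2 UMIs had 18085 CPM of this list, against 4296 CPM in the others. The 178 such ctrl microglia had 11978 CPM, against 5942 CPM, and parted more on lesion macrophage genes (11736 CPM against 3995 CPM) and MHC class II genes (2053 CPM against 866 CPM). Cxcl1 had 99.0 CPM in the LD cells high for the NF-kB-inducible list, which held 282 of its 482 UMIs. Of these 482, 242 lay in 4 LD microglia with at least 10 UMIs, and the highest cell had 184. The Cxcl1 level in cells high for the NF-kB-inducible list may thus rest on few cells. Cxcl10 went with both this list and the type I interferon list (Irf7, Ifit and Oasl genes). It had 405 CPM in NF-kB-high and 77.9 CPM in other LD microglia, and 275 CPM in interferon-high and 82.9 CPM in other LD microglia. In ctrl the pairs were 253 and 76.6 CPM for the NF-kB-inducible list and 190 and 83.1 CPM for the interferon list. The 248 LD microglia with at least 3 Cxcl10 UMIs had 4277 CPM of the interferon list, against 2845 CPM in the others, and 12504 CPM of the NF-kB-inducible list, against 4655 CPM. The 134 such ctrl microglia had 702 CPM of the interferon list, close to the 606 CPM of the others, but 12911 CPM of the NF-kB-inducible list, against 6050 CPM, and 156 CPM of cell cycle genes, against 24.3 CPM.

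Cxcl13 stood apart from these. It had 123 CPM in interferon-high LD microglia and 11 CPM in the others, a ratio of 11.3 (9.75 to 13), and 61.2% of its UMIs lay in those 440 cells. For the NF-kB-inducible list it had 17.6 CPM in the high cells and 25.4 CPM in the others, a ratio of 0.690 (0.508 to 0.920). It was also higher in cells high for MHC class II genes (93.2 CPM and 18.3 CPM), interferon-gamma-type genes (89.6 CPM and 18.4 CPM) and cell cycle genes (59.6 CPM and 19.9 CPM). The 32 LD microglia with at least 3 Cxcl13 UMIs had 6856 CPM of the type I interferon list and 769 CPM of the cell cycle list, against 2896 CPM and 170 CPM in the other LD microglia; their median depth was 8000.5 UMIs against 6773. Since 44 cells held most Cxcl13 UMIs, these ratios rest on few cells.

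Cxcl16 differed less than Cxcl2 between cells high for the NF-kB-inducible list and the others, with 338 CPM in the high cells and 138 CPM in the others in LD, and 225 CPM and 78.1 CPM in ctrl. The median depths of high and other cells for the interferon list were 8211.5 and 6683 UMIs in LD and lay closer together in ctrl, at 4703 and 4794 UMIs. In double-low cells of LD, Pf4 had 4.32 CPM in the 117 cells high for MHC class II genes and 52.8 CPM in the others, whereas Cxcl16 had 756 CPM and 496 CPM. In ctrl double-low cells Pf4 had 741 CPM in the 25 cells high for MHC class II genes and 578 CPM in the others.

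**Figure D5:**
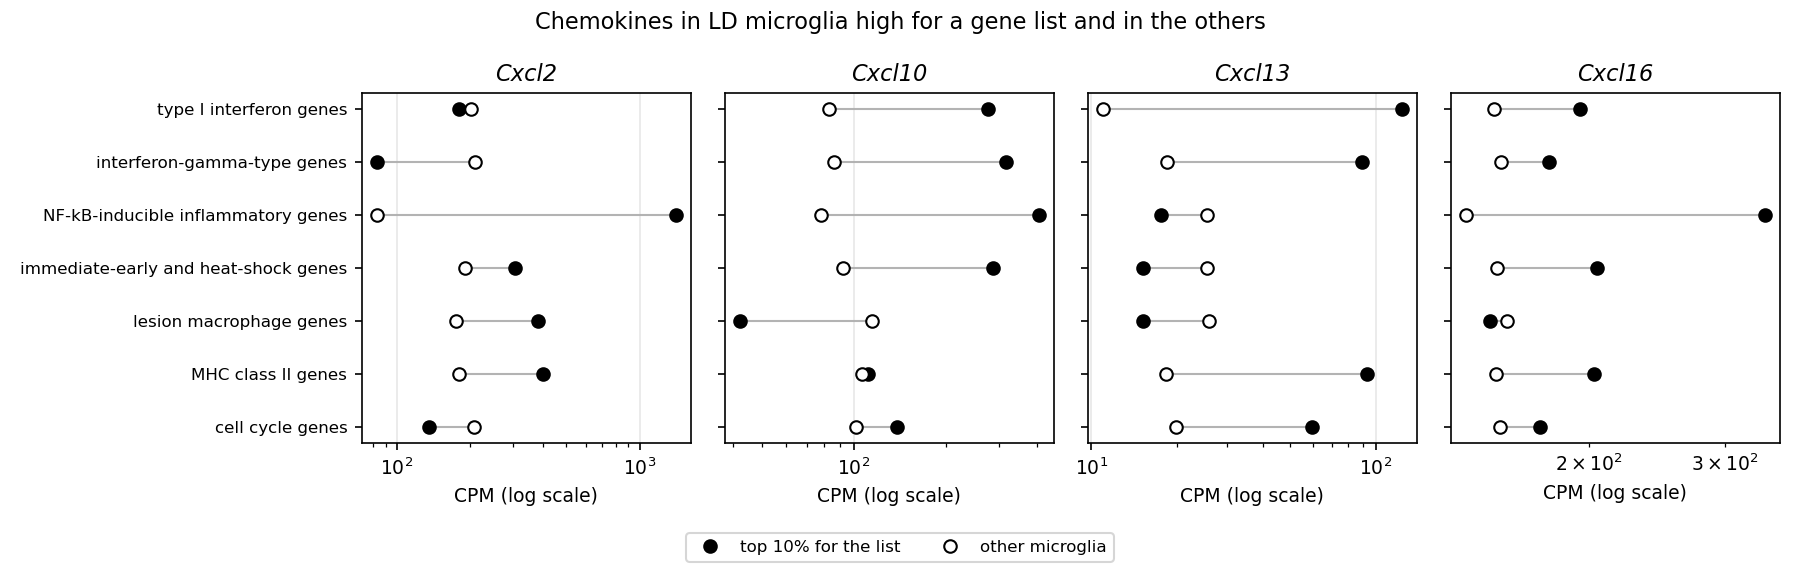
CPM (log axis) of Cxcl2, Cxcl10, Cxcl13 and Cxcl16 in LD microglia in the top 10% for each gene list (filled) and in the other LD microglia (open). Cxcl2 parts most on the NF-kB-inducible list (1412 and 82.8 CPM), Cxcl13 on the type I interferon list (123 and 11 CPM), and Cxcl10 on both.

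Across single cells, the genes most like each member were found by Pearson's r of log-scaled UMIs. All cells of a class share a library, and r is held low by sparse counts. In LD microglia (4395 cells) the genes nearest to Cxcl2 were Maff (0.30, with 0.15 in 3377 ctrl microglia), Tnf (0.30, with 0.14) and Pim1 (0.28, with 0.11). Nearest to Cxcl10 were Nfkbia (0.23, with 0.15 in ctrl), Oasl1 (0.20, with 0.09) and Nfkbiz (0.20, with 0.13). Nearest to Cxcl16 were Tnf (0.27, with 0.18), Marcksl1 (0.25, with 0.16) and Plaur (0.24, with 0.12). Nearest to Cxcl13 were Ly6a (0.22, with -0.0042 in ctrl), Ccl5 (0.21, with 0.09) and Irf7 (0.16, with -0.01), and to Cxcl1 Il10 (0.20, with 0.04) and Clec4n (0.16, with 0.02). Values this low are weak and are given as a description.

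In perivascular macrophages (83 LD and 52 ctrl cells) likeness was closer. Nearest to Cxcl2 were Ccl3 (0.73 in LD, 0.43 in ctrl), Cdkn1a (0.71, 0.53) and Marcksl1 (0.65, 0.58). Nearest to Cxcl1 was Cxcl2 itself (0.59 in LD, 0.69 in ctrl), before Tnfaip2 (0.53, 0.44) and Tnf (0.52, 0.49). The genes nearest to Pf4 in LD, Psmc6 (0.39), Cd81 (0.39) and Snx8 (0.38), had r of -0.04, 0.15 and 0.0027 in ctrl, and those nearest to Cxcl10 (I830077J02Rik, Hist2h4 and Gm28050, 0.47 to 0.49) had none above 0 in ctrl. In double-low cells, Cxcl16 was nearest to Cd72 (0.37 in 1166 LD cells, 0.42 in 244 ctrl cells), Cd52 (0.33, 0.38) and Bcl2a1d (0.31, 0.63). Cxcl9 and Cxcl13 had an r of 0.22 in LD microglia, where 4 cells carried both, 25.0% of the 16 Cxcl9 cells and 3.05% of the 131 Cxcl13 cells.

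The genes around these chemokines were taken from fixed lists and read in microglia. Of 7 further CXC ligands found, 1 reached 20 CPM: Cxcl14, with 61.8 CPM in LD and 26.5 CPM in ctrl, was 2.33 times higher (2.10 to 2.59). Cxcl12, which stromal cells make, had 1 UMI in LD and 4 in ctrl microglia, and 26 UMIs in LD and 194 in ctrl double-low cells. None of the 8 CXC receptors reached 20 CPM in microglia. Cxcr4, the Cxcl12 receptor, had 57.9 CPM in LD and 54.5 CPM in ctrl double-low cells and 48.3 CPM in LD and 35.9 CPM in ctrl perivascular macrophages.

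Of all genes measured in microglia, 5.42% were higher and 6.83% lower in LD by over 1.5-fold, which stands beside each count that follows. Type I interferon genes were higher in LD microglia in 17 of 17 measured, led by Irf7 (10.9 times), the master regulator of this response, Ifi27l2a (9.07 times) and Oasl2 (7.33 times). Of 8 interferon-gamma-type genes measured, 2 were higher, Tap1 (2.31 times) and Irgm1 (1.73 times), and 0 lower. NF-kB-inducible inflammatory genes gave 0 higher and 1 lower of 16, which was the chemokine Ccl3 at 0.626 times, a share near that of all genes. Immediate-early and heat-shock genes gave 0 higher and 9 lower of 22, with Ier5 at 0.143 times. Of 9 lesion macrophage genes measured, 8 were higher, led by Lgals3 (7.62 times), and of 7 MHC class II genes 0 were higher or lower. All 3 measured cell cycle genes (Birc5, Top2a and Cdk1) were higher.

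Markers of cells that these chemokines attract were looked for in the same classes. Only live YFP-positive cells were sorted, so low levels here cannot show whether such cells without YFP were in the retina. Of 6 neutrophil markers, S100a9, Retnlg and Ly6g were at 0 in all 3 classes of both libraries. The 6 summed to 90.3 CPM in LD and 52.5 CPM in ctrl perivascular macrophages, 57.6 CPM in LD and 54.5 CPM in ctrl double-low cells, and 154 CPM in LD and 137 CPM in ctrl microglia, nearly all of it Csf3r. T cell markers summed to 8.90 CPM in LD and 22.1 CPM in ctrl perivascular macrophages, all of it Cd4, to 3.55 CPM in LD and 10.4 CPM in ctrl double-low cells, and to under 1 CPM in microglia of both libraries. Natural killer cell markers summed to 0 in LD and 19.4 CPM in ctrl double-low cells, in 0.41% of the ctrl cells, to 0 in perivascular macrophages and to under 1 CPM in microglia of both libraries. In double-low cells, monocyte markers (Ccr2, Ly6c2, Plac8 and others) summed to 127 CPM in LD and 42.5 CPM in ctrl, and endothelial markers to 26.5 CPM in LD and 239 CPM in ctrl. Rod and endothelial transcripts were thus present after the sort for YFP, and the part of these cells in the chemokine levels was not tested.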

How the data were processed

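The authors deposited, for each of the 2 libraries, a matrix of UMI counts per gene and cell barcode with its gene and barcode tables. The count values were whole numbers and not normalized. Cell Ranger 2.0.0 and build mm10 are named in the submitters' processing notes; settings and other steps were not given in the sources used here. Each group is 1 library of a pool of mice, 6821 barcodes in LD and 4003 in ctrl, with 58187149 and 20056338 UMIs.

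A barcode was kept if it had 300 genes or more and no more than 10% of its UMIs from mitochondrial genes. The automatic threshold of Scrublet (scanpy 1.11.5) marked 0 barcodes, so the highest scores were removed, at 0.8% of a library per 1000 barcodes (372 in LD, 128 in ctrl). The libraries had 47 barcodes in common, of which 44 LD and 45 ctrl cells were kept. UMIs were summed per class and library and scaled to CPM. Ratios carry exact 95% intervals for 2 Poisson counts, and shares exact Clopper-Pearson 95% intervals (scipy 1.17.1). A gene was counted past 1.5-fold with at least 20 CPM in either library, and a count of 0 was set to a floor of 3. Shares were compared with each cell thinned to 2700 UMIs, which left out shallower cells: 0 LD and 439 ctrl microglia, 0 LD and 6 ctrl perivascular macrophages, and 0 LD and 64 ctrl double-low cells. UMIs are molecules, but intervals leave out variation between cells, mice and pools. The scripts were tested on simulated data.

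The members and lists were chosen with earlier results of these data known, the promoter motifs with the sequences in view, and the level in rod-type barcodes, the steps along both marker sums and the description of carrier cells after the data were seen. Named genes were all members, up to 3 genes per response list with the largest microglial log2 ratio, and up to 3 genes per member with the highest r of at least 0.15. Of 27998 gene identifiers, 27645 were found in GENCODE M21. Some genes on the lists (Cxcl11, Trac, Trbc2, Pclaf) were not analysed here. The levels of the microglia markers outside the rule and of the B cell markers are not reported here.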

Additional observations from a re-analysis of the deposited data

Results flagged for a closer look

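For 4 pairs of classes, a gene was higher in LD than in ctrl in 1 class and lower in LD in the other, each past its counting interval. None of these differences was tested, since each group has 1 library. The intervals also leave out spread between cells. In LD perivascular macrophages, the 8 highest of 83 cells held 59.1% of Cxcl1 UMIs and 33.8% of Cxcl2 UMIs. In ctrl, the 5 highest of 52 cells held 70.3% of Cxcl1 UMIs and 47.2% of Cxcl2 UMIs. Cxcl2 had log2 ratios of LD over ctrl of 0.14 in perivascular macrophages and -0.42 in microglia, which differ by 0.57, and of -2.32 in double-low cells, which differs by 2.46 from perivascular macrophages. Microglia with 1 or 2 Cxcl2 UMIs, read as background in ctrl, held 22.2% of the microglial Cxcl2 UMIs in LD and 40.3% in ctrl. The microglial ratio of Cxcl2 is therefore not read as one in expression. Cxcl1 had 0.28 in perivascular macrophages and -2.17 in double-low cells, which differ by 2.45. Cxcl10 had 0.19 in microglia and -1.14 in double-low cells, which differ by 1.32. In double-low cells with macrophage genes and perivascular sums of 5 to 10, just under the limit, Cxcl2 stood at 21831 CPM in the 45 LD cells and 22973 CPM in the 52 ctrl cells, out of 1166 LD and 244 ctrl double-low cells; the part of this in the differences was not tested.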

How the results depend on the processing

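No paired analysis was possible because each group has 1 library, and for the same reason no library could be left out. The microglial log2 ratios of LD over ctrl moved with several settings. With the microglia limit at 10 they were -1.47 for Cxcl1, -1.02 for Cxcl2, 0.46 for Cxcl10 and 0.84 for Cxcl16, and 3 genes (Cxcl1, Cxcl2, Pf4) were lower. At 30 they were -1.17 for Cxcl1, -0.99 for Cxcl2 and -0.14 for Cxcl10. Cxcl9 at 30 gave 1.59 with 0 ctrl UMIs set to the floor of 3, which is not an interval bound. At that limit 1 gene was higher (Cxcl16) and 1 lower (Cxcl2). The main values were -0.03 for Cxcl1, -0.42 for Cxcl2, -1.03 for Cxcl9, 0.19 for Cxcl10, 0.76 for Cxcl16 and -2.30 for Pf4. With the perivascular limit at 20, Cxcl1 gave -0.29 and Cxcl2 -0.53. Without doublet removal Cxcl2 gave -0.30 and Pf4 -1.92. Thinning gave -0.50 for Cxcl1, -0.27 for Cxcl2 and 0.33 for Cxcl9; the mean of CPM per cell gave -0.48, -0.28 and 0.32. Median-of-ratios scaling gave -0.35 for Cxcl2. Without the 1% of cells highest for a gene, the mean of CPM per cell gave -1.30 for Cxcl1, -0.63 for Cxcl2, 0.30 for Cxcl10, 0.90 for Cxcl16 and -5.52 for Pf4, and no value for Cxcl9 and Cxcl13, whose ctrl UMIs all lay in those cells. A minimum of 50 CPM left 1 gene higher in microglia (Cxcl16), a limit of 2-fold left 1 (Cxcl13), and no minimum added 2 lower (Cxcl9, Pf4). In perivascular macrophages, a microglia limit of 10 gave 2 lower (Cxcl10, Pf4), a perivascular limit of 20 gave 1 higher (Cxcl1) and 0 lower, with Pf4 at -0.56, thinning gave 1 higher (Cxcl13), and leaving out barcodes found in both libraries, an alternative chosen after seeing the data, gave 1 higher (Cxcl1). In double-low cells no minimum gave 2 higher (Cxcl9, Cxcl13). The cause of these shifts was not tested. Cxcl13 and Cxcl16 in microglia, and Pf4 in all classes, kept their direction under each alternative that gave a value. At the main limits Pf4 in microglia had 2.89 CPM in LD and 14.2 CPM in ctrl. Both are under the 21.8 CPM that 0 UMIs in the ctrl rod-type barcodes allow, so its microglial direction is not read as one in expression. The other 182 values and counts in microglia and over the members moved by less than their interval or by under 1.5 times. Depth limits Cxcl9 and ctrl Cxcl13, with under 30 UMIs each in microglia, and the ctrl shares of Cxcl1 and Cxcl2 are limited by free RNA.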

Other observations

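The LD cells between the limits, which belong to no class, held 27.9% of all Cxcl10 UMIs and 36.1% of all Cxcl13 UMIs of kept LD cells, while the ctrl cells between the limits held 10.2% of Cxcl10 UMIs and 0 of 17 Cxcl13 UMIs. Cxcl10 there had 288 CPM in 781 LD cells and 294 CPM in 142 ctrl cells. Cxcl2 had 597 CPM in LD and 6397 CPM in ctrl, and Pf4 had 21.9 CPM in LD and 560 CPM in ctrl. Both limits were passed by 2 LD and 5 ctrl cells; in these, 2 LD cells had 451 Cxcl2 UMIs, and 690 of the 691 ctrl Cxcl2 UMIs lay in 1 cell.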
